A study of Mus musculus with 12 samples.

Results

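Creatine kinase, adenylate kinase and myoglobin genes were followed in mouse heart ventricle kept in normal or low oxygen. The 9 genes were chosen by name: the creatine kinases Ckm, Ckmt2 and Ckb, the creatine transporter Slc6a8, the adenylate kinases Ak1, Ak3 and Ak4, and the globins Mb and Cygb. All 9 were found among the 39210 genes of the table, and all 9 had enough reads to be tested, among 13960 genes tested. The mice were C57BL/6 with no altered allele named, and all tissue was snap-frozen ventricle. There were 12 libraries, 3 for males and 3 for females under each oxygen level. Hypoxic mice had chamber oxygen lowered by 1% a day over 14 days and then stayed at 7% for 2 weeks, while the normoxia groups had room air (20.9% oxygen) over 4 weeks. Ages are not stated, nor whether left or right ventricle was taken, nor whether each library is a different mouse; the p-values therefore speak of the spread among these libraries, and part of that spread may be technical.

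Heart muscle uses ATP at every beat and holds little of it in store. Creatine kinases move a phosphate group between ATP and creatine: a mitochondrial form (Ckmt2) makes phosphocreatine where ATP is produced, and cytosolic forms (Ckm, bound in part at the M band of the sarcomere, and Ckb, the brain type) make ATP from it where it is used. Adenylate kinases convert ADP into ATP and AMP, and the AMP so made is read by AMP-activated protein kinase as a sign of low energy. Myoglobin (Mb) stores oxygen in the muscle cell and helps it diffuse, and cytoglobin (Cygb) is a related globin found mainly in fibroblasts and other connective tissue cells.

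The libraries held 14915830 to 19397851 estimated counts. Transcripts encoded in mitochondria took 24.5 to 29.3% of counts in normoxia and 15.8 to 23.1% in hypoxia, and haemoglobin transcripts 0.146 to 0.210% and 0.721 to 1.39%. Heart muscle cell genes (Myl2, Myl3, Tnnt2 and 5 others) were abundant in every library, with a summed level of 50854 to 66733 TPM. TPM is a transcript abundance corrected for length and library. Several of these genes are not confined to the ventricle, so the sum does not tell ventricle from atrium. The libraries of hypoxic males numbered 2 and 3 stood apart in atrial genes (6 markers, among them Nppa and Myl7, of which 4 were tested, with a mean log2 CPM, a count scaled to the library, of 7.03 and 6.60 against 1.39 to 3.72 elsewhere) and in fat cell genes (7 markers, 3 tested, 5.16 and 4.85 against at most 2.67 elsewhere). The adipocyte genes Plin1 and Lep were at 0 in 12 and 11 of 12 libraries. Library 3 of the normoxic females stood apart in 6 immediate early genes, with a mean log2 CPM of 5.01 against 1.44 to 3.30. Results that rest on these 3 libraries are given with and without them. Leaving out hypoxic males 2 and 3 leaves 1 hypoxic male, so effect sizes without a call are given for that step.

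Of the 9 genes, 3 were lower in hypoxia when the effect was averaged over both sexes (Ckm, Ckmt2 and Ak3), 0 were higher, and 6 did not pass (edgeR's quasi-likelihood test, Benjamini-Hochberg adjusted p under 0.05). Of all genes tested 27.9% passed in this contrast, 15% higher and 12.9% lower, so the share of the 9 that passed lay near that of all genes. At an unadjusted p under 0.05 the count was 4 lower and 0 higher. DESeq2 gave 4 lower and 0 higher (31.7% of all genes passed), and limma voom 3 lower and 0 higher (28.1%). The median log2 fold change of the 9 genes was -0.29, beside -0.01 over all genes tested. All these directions are relative to the bulk of genes: they hold after TMM scaling, which sets the typical gene near no change, and several turned on other scales, as set out below. In bulk tissue, fewer cells of a type and less RNA per cell cannot be told apart. Beside these falls, 5 of 6 endothelial, 4 of 7 fibroblast, 3 of 6 macrophage and 5 of 5 erythroid markers were higher in the averaged contrast. In males alone these counts were 2, 5, 2 and 5 (8.47% of all genes were higher). In females alone they were 1, 0, 0 and 4 (3.97%). Of the 8 heart muscle cell markers 1 was lower on average. The part of all these markers in the results was not tested.

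The promoters of the 3 genes that fell, and that of Ak4, known from other cells as a target of hypoxia-inducible factor (HIF), are shown because a reader of a hypoxia experiment looks there first for HIF core sequences. Windows run from 250 bases before to 50 after the annotated start (RefSeq, GRCm38.p6, not the build named for these data), and capitals mark ACGTG or GCGTG on either strand. They lie at chr7:19410844-19411143 (plus strand) for Ckm, chr13:91876836-91877135 (minus strand) for Ckmt2, chr19:29047912-29048211 (minus strand) for Ak3 and chr4:101419453-101419752 (plus strand) for the Ak4 start printed.
Ckm: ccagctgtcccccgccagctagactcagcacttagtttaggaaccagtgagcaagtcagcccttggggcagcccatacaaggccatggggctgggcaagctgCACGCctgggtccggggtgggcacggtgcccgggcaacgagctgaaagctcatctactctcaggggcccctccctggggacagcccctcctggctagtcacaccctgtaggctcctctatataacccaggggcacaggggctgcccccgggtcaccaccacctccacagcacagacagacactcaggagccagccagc
Ckmt2: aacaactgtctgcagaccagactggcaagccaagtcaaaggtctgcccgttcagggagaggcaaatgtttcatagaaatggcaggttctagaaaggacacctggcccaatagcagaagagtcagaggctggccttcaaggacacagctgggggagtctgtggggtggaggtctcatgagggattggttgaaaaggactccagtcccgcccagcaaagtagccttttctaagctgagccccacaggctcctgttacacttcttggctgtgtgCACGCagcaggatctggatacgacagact
Ak3: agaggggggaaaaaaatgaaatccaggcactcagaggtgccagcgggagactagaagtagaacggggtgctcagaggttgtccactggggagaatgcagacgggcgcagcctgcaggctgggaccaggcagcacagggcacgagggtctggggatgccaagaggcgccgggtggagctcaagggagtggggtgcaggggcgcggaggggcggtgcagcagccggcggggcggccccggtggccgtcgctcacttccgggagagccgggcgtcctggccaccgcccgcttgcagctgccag
Ak4: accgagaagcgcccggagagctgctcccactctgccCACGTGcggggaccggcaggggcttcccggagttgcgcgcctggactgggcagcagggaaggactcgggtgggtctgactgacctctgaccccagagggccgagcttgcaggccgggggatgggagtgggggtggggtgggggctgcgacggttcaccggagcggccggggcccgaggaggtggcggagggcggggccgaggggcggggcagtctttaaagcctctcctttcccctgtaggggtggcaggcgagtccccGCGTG
The Ckm and Ckmt2 windows each held GCGTG once, on the opposite strand, and the Ak3 window held neither core. The Ak4 window held CACGTG, which carries ACGTG on each strand and is also an E-box (CANNTG), and GCGTG once at its end. It was chosen among 4 Ak4 windows, after their letters were seen, as the one that holds ACGTG; the other 3, which overlap each other, held no ACGTG and GCGTG 2 times each. RefSeq windows were matched for 7 of the 9 genes (15 windows, several genes having more than 1 start), and 9 windows of 4 genes (Ckm, Ckmt2, Ak1 and Ak4) held a core. Among all 32851 windows of this length, 43.8% held ACGTG or GCGTG, 72.3% an E-box, 13.6% TATAAA and 4.72% AAGGTCA, a half-site for estrogen-related receptors. A match is a description of the letters and shows no binding.

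Compared per length, in TPM averaged over the 12 libraries, the genes spanned a wide range. Mb, at 7509 TPM (6575 to 8779 across libraries), ranked 18 among all genes of the table by mean TPM. Ckmt2 followed at 1063 TPM (882 to 1205) and Ckm at 902 TPM (771 to 966); their ranges overlapped across libraries, but within each of the 12 libraries Ckmt2 was the higher, by 1.04 to 1.28 times. Ak1 stood at 155 TPM (112 to 179) and Slc6a8 at 59.1 TPM (45.7 to 95.8), with no overlap between these neighbours. Cygb at 25.0 TPM (16.02 to 36.2), Ckb at 24.2 TPM (14.4 to 41.7) and Ak3 at 21.8 TPM (18.5 to 25.6) could not be ordered beyond their spread. Ak4 was the least abundant at 5.90 TPM (2.61 to 7.15), ranked 5527.

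**Figure D1:**
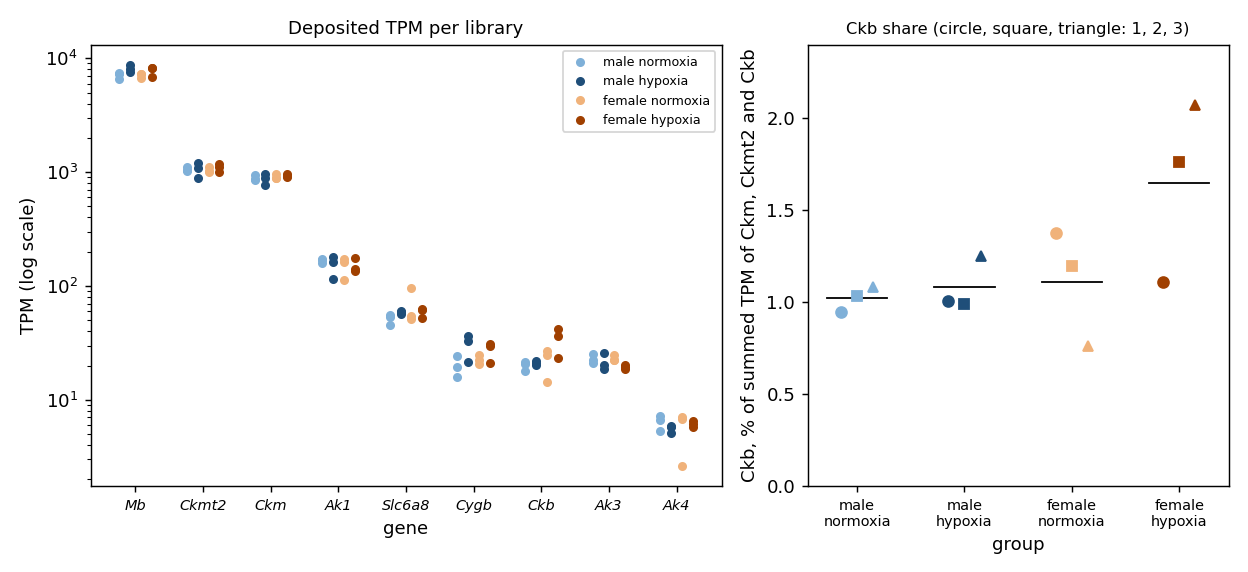
The left plot shows deposited TPM (log axis) of each gene in the 12 libraries, coloured by group, from Mb at the top to Ak4 at the bottom; the right plot shows the share of Ckb in the summed TPM of Ckm, Ckmt2 and Ckb for each library, with lines at group means. Ckb made up 0.761 to 2.07% of that sum, and the 2 highest libraries were hypoxic females.

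The creatine kinase transcripts together summed to 1990 ± 131 TPM (SD, n = 12), and their makeup was steady. Ckmt2 gave 53.4 ± 1.61% of the sum, Ckm 45.4 ± 1.43% and Ckb 1.22 ± 0.37% (SD, n = 12). In males the Ckb share was 1.02 ± 0.07% under normoxia and 1.08 ± 0.15% under hypoxia; in females it was 1.11 ± 0.32% and 1.65 ± 0.49% (SD, n = 3 each), and the female groups overlapped. The Ckmt2 to Ckm ratio differed between hypoxia and normoxia by 0.02 on the log2 scale (p = 0.645, adjusted over 6 ratios 0.774), in an exact two-sided permutation test of oxygen within sex over 400 arrangements, whose smallest possible p is 0.005. For Ckb to Ckm the difference was 0.34 (p = 0.125, adjusted 0.375), and for Slc6a8 to Ckm 0.02 (p = 0.925, adjusted 0.925) by the same exact permutation test. A ratio of transcripts in the same library does not depend on how libraries are scaled.

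Ckm (ENSMUSG00000030399), the muscle cytosolic creatine kinase, fell in hypoxia. Levels within a gene are given as CPM, counts scaled to the library total corrected by TMM. In normoxic males the 3 libraries had 1620, 1532 and 1768 CPM, and in hypoxic males 1378, 1178 and 1091 CPM. In normoxic females they had 1513, 1585 and 1544 CPM, and in hypoxic females 1445, 1348 and 1312 CPM. Hypoxia and normoxia did not overlap in either sex, and the lowest values were those of hypoxic males 2 and 3. The averaged log2 fold change was -0.30 ± 0.08 (SE), which is 0.810-fold, with an edgeR adjusted p of 0.0126 (0.00018 to 0.978 over 27 alternatives). In males it was -0.43 ± 0.11 (adjusted p = 0.0216) and in females -0.18 ± 0.11 (adjusted p = 0.332; edgeR). With hypoxic males 2 and 3 left out the averaged value was -0.21. The call in males ended when any of normoxic males 1 or 3 or hypoxic males 2 or 3 was left out alone (edgeR adjusted p 0.0624 to 0.0842).

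Ckmt2 (ENSMUSG00000021622), the sarcomeric mitochondrial creatine kinase, fell by a similar amount but at the edge of the threshold. Normoxic males had 2448, 2448 and 2474 CPM, and hypoxic males 2116, 1844 and 1566 CPM. Normoxic females had 2165, 2283 and 2186 CPM, and hypoxic females 2316, 2041 and 1712 CPM. The males did not overlap, whereas hypoxic female library 1 was above all 3 normoxic females. Averaged over the sexes, the log2 fold change was -0.27 ± 0.09 (SE), or 0.828-fold (adjusted p = 0.0489, edgeR; 0.0139 to 0.823 over alternatives). It was -0.42 ± 0.13 in males (adjusted p = 0.0542) and -0.13 ± 0.13 in females (adjusted p = 0.585; edgeR). The averaged call ended when any library other than hypoxic male 1 or hypoxic female 1 was left out (edgeR adjusted p 0.0576 to 0.113), and with hypoxic males 2 and 3 left out the value was -0.17.

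Ckb (ENSMUSG00000001270), the brain-type cytosolic creatine kinase, had a higher value in hypoxic females and a lower one in hypoxic males. Normoxic males had 42.5, 45.1 and 50.7 CPM, and hypoxic males 38.7, 32.9 and 36.8 CPM, with no overlap. Normoxic females had 56.1, 51.2 and 31.3 CPM, and hypoxic females 45.9, 66.2 and 70.2 CPM, with overlap. The log2 fold change was -0.35 ± 0.21 (SE) in males (adjusted p = 0.265) and 0.40 ± 0.21 in females (adjusted p = 0.260), so the average was 0.02 ± 0.15 (adjusted p = 0.924; edgeR). The difference between the sexes in the effect of hypoxia was 0.75 ± 0.29 (unadjusted p = 0.0259, adjusted p = 0.718 by edgeR), which did not pass over all genes. In hypoxia, females exceeded males by 0.75 ± 0.21 on the log2 scale, which did not pass in edgeR (adjusted p = 0.258; 0.15% of all genes passed). It passed in DESeq2 (adjusted p = 0.0401), where 1.32% of all genes passed. Normoxic female library 3 had the lowest Ckb of all 12 libraries; without it the female log2 fold change was 0.18 and the averaged value -0.09.

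Slc6a8 (ENSMUSG00000019558), which carries creatine into the cell, did not pass in any contrast. Normoxic males had 238, 190 and 214 CPM, and hypoxic males 202, 194 and 181 CPM. Normoxic females had 204, 197 and 340 CPM, and hypoxic females 213, 160 and 176 CPM. Groups overlapped in both sexes, and the value of 340 CPM stood in normoxic female library 3, the library high in immediate early genes. The averaged log2 fold change was -0.29 ± 0.14 (SE; adjusted p = 0.134, edgeR; 95% interval -0.61 to 0.03). It was -0.14 without that library.

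**Figure D2:**
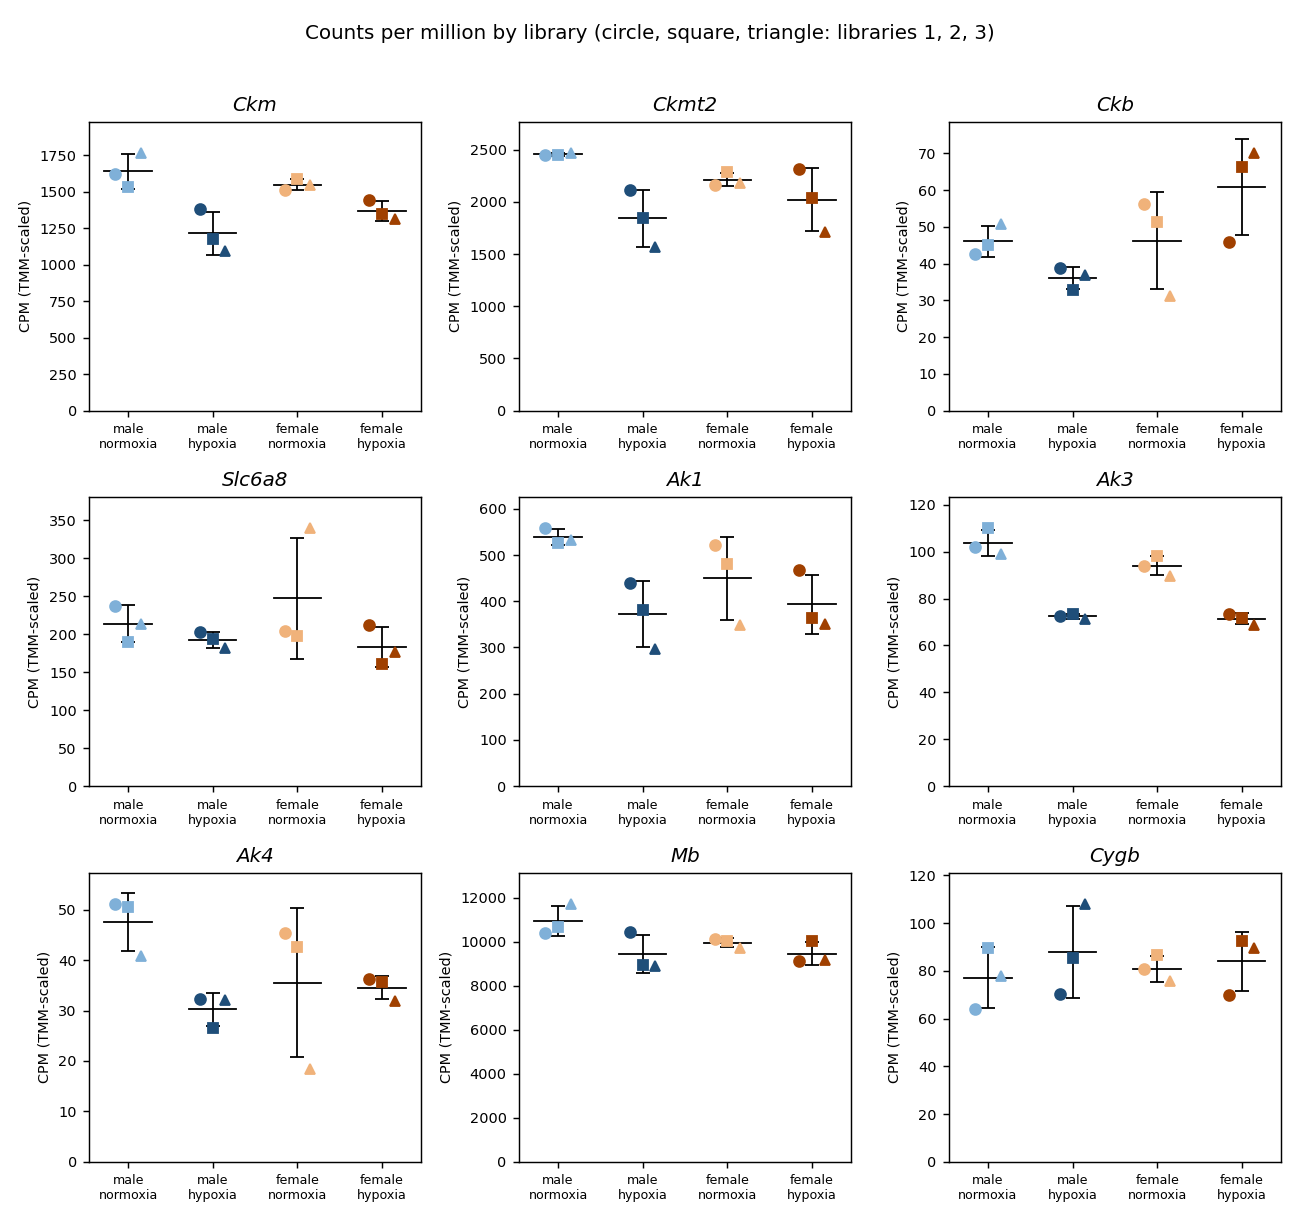
CPM (TMM-scaled) of each of the 9 genes by group; circles, squares and triangles are libraries 1, 2 and 3, and bars are the mean ± SD of 3 libraries. Ak3 was at 68.8 to 73.5 CPM in all 6 hypoxic libraries and at 89.8 to 110 CPM in all 6 normoxic ones, while Slc6a8 and Ak4 each had a single normoxic female library far from the other 2.

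Ak3 (ENSMUSG00000024782), the adenylate kinase of the mitochondrial matrix that uses GTP, fell in both sexes. Normoxic males had 102, 110 and 98.9 CPM, and hypoxic males 72.7, 73.3 and 71.3 CPM. Normoxic females had 94.1, 98.0 and 89.8 CPM, and hypoxic females 73.5, 71.6 and 68.8 CPM. No hypoxic library reached the lowest normoxic one, and the values within hypoxia were close together. For the average of both sexes the log2 fold change was -0.46 ± 0.05 (SE), or 0.728-fold (adjusted p = 0.000435, edgeR; 3.26e-16 to 0.180 over alternatives). In males it was -0.52 ± 0.08 (adjusted p = 0.00291) and in females -0.40 ± 0.08 (adjusted p = 0.0177; edgeR). The averaged call stood in 26 of 27 alternatives, the exception being deposited TPM (-0.17, adjusted p = 0.180, limma), and the value without hypoxic males 2 and 3 was -0.45. The call in females alone ended when any of normoxic females 1 or 2 or hypoxic females 2 or 3 was left out (edgeR adjusted p 0.0533 to 0.101). In the GRCm38 annotation an exon of Ak3 overlaps one of Cdc37l1 on the opposite strand. Cdc37l1 had 1032 to 1908 estimated counts and Ak3 at least 1098, and the strand setting of the counting is not given in the sources used here, so reads from the overlap cannot be told apart.

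Ak1 (ENSMUSG00000026817), the cytosolic adenylate kinase, made up 81.5 to 87.5% of the summed TPM of the 3 adenylate kinases. Normoxic males had 558, 525 and 533 CPM, and hypoxic males 439, 382 and 297 CPM, with no overlap. Normoxic females had 521, 480 and 348 CPM, and hypoxic females 467, 364 and 350 CPM, where normoxic female library 3 lay below all 3 hypoxic ones. The averaged log2 fold change was -0.36 ± 0.13 (SE) and did not pass (adjusted p = 0.0531, edgeR; 0.0135 to 0.753 over alternatives). It passed in 6 alternatives: DESeq2 (adjusted p = 0.0203), upper quartile factors, the replicate block, and each of hypoxic male 1, normoxic female 3 and hypoxic female 1 left out. Without normoxic female 3 it was -0.44 (adjusted p = 0.0143, edgeR). Without hypoxic males 2 and 3 it was -0.24, and with normoxic female 3 left out as well -0.32.

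Ak4 (ENSMUSG00000028527), a mitochondrial matrix member with little kinase activity of its own, rested on the fewest reads, 300 to 930 estimated counts per library. Normoxic males had 51.2, 50.6 and 40.9 CPM, and hypoxic males 32.2, 26.5 and 32.1 CPM, with no overlap. Normoxic females had 45.4, 42.6 and 18.5 CPM, and hypoxic females 36.2, 35.6 and 31.9 CPM. Normoxic female library 3 was the lowest of all 12, and the other 2 normoxic females lay above all hypoxic ones. The averaged log2 fold change was -0.35 ± 0.18 (SE; adjusted p = 0.174, edgeR; 0.00205 to 0.899 over alternatives). The averaged value was -0.30 without hypoxic males 2 and 3, and -0.45 with normoxic female 3 left out as well. Without normoxic female 3 it was -0.50 (adjusted p = 0.00205), the male value of -0.65 passed (adjusted p = 0.00444), and the female value went from -0.04 to -0.35 (adjusted p = 0.108; edgeR). The ratios Ak4 to Ak3 and Ak1 to Ak3 differed with oxygen by 0.23 (p = 0.505) and 0.11 (p = 0.50) on the log2 scale, each with an adjusted p of 0.758 in the exact permutation test.

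Mb (ENSMUSG00000018893), the oxygen-binding globin of muscle, had lower values in hypoxia that did not pass. Normoxic males had 10419, 10690 and 11727 CPM, and hypoxic males 10422, 8936 and 8916 CPM. Normoxic females had 10136, 10023 and 9718 CPM, and hypoxic females 9117, 10053 and 9181 CPM. Groups overlapped in both sexes. On average over both sexes the log2 fold change was -0.15 ± 0.07 (SE; 0.904-fold; adjusted p = 0.148, edgeR; 95% interval -0.31 to 0.02). It was -0.07 without hypoxic males 2 and 3.

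Cygb (ENSMUSG00000020810), the globin of fibroblasts, did not pass either. Normoxic males had 64.02, 89.7 and 77.8 CPM, and hypoxic males 70.1, 85.5 and 108 CPM. Normoxic females had 80.7, 86.5 and 75.7 CPM, and hypoxic females 69.9, 92.7 and 89.6 CPM. The averaged log2 fold change was 0.12 ± 0.12 (SE; adjusted p = 0.483, edgeR; 95% interval -0.16 to 0.40), and it was -0.04 without hypoxic males 2 and 3. Of 7 fibroblast markers, 4 were higher in hypoxia in the averaged contrast, 5 in males and 0 in females. Of all genes tested, 15%, 8.47% and 3.97% were higher in these contrasts. The Cygb to Mb ratio differed by 0.26 on the log2 scale (p = 0.11, adjusted 0.375, exact permutation test).

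**Figure D3:**
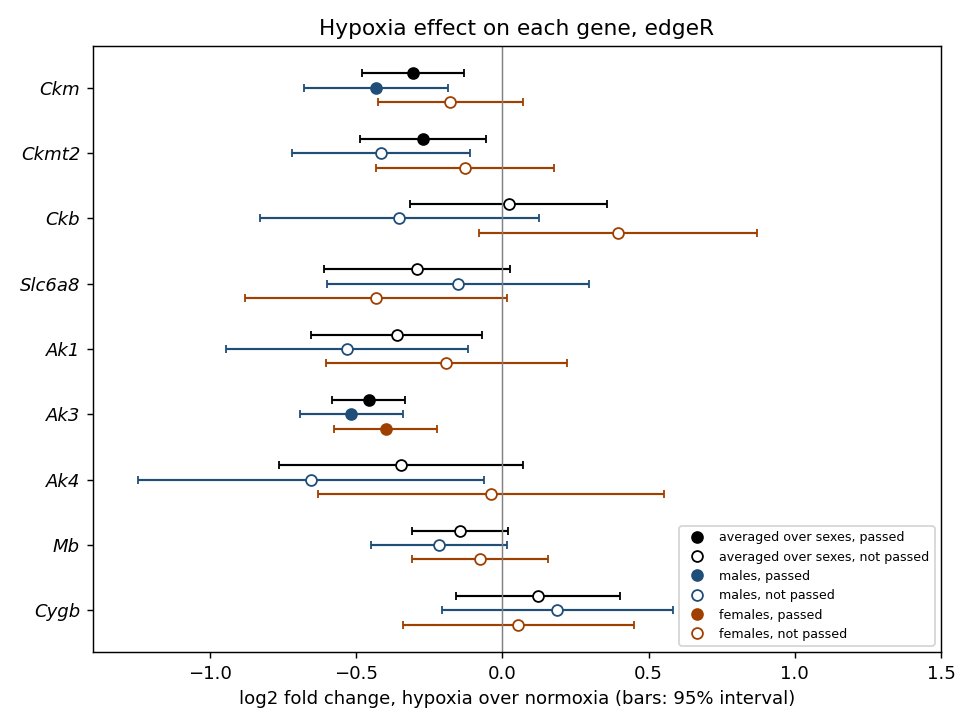
Log2 fold change of hypoxia over normoxia for each gene, averaged over the sexes and in each sex. The 95% intervals were built from the edgeR estimate and its SE with 8 degrees of freedom. Filled points had an adjusted p under 0.05 in edgeR. Ak3 is filled in all 3 contrasts, Ckm in the average and in males, Ckmt2 in the average only; Ckb points left in males and right in females, with both intervals crossing 0.

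In males, 2 of the 9 genes passed, both lower (Ckm and Ak3), against 15.6% of all genes tested (8.47% higher and 7.1% lower). In females 1 passed, lower (Ak3), against 5.99% of all genes (3.97% higher and 2.02% lower). The median log2 fold change of the 9 genes was -0.42 in males and -0.13 in females, beside 0.01 and -0.02 over all genes. By overlap of single libraries, 6 genes lay lower in hypoxia with no overlap in males (all but Slc6a8, Mb and Cygb), 2 in females (Ckm and Ak3), and 2 in both; over all genes tested, groups did not overlap for 41.3% in males, 25.9% in females and 14.7% in both in the same direction. The difference between the sexes itself passed for 0 of 9 genes (1 at an unadjusted p under 0.05, Ckb; 0 by DESeq2 and 0 by limma voom), and for 0.00716% of all genes. Females and males differed for 0 of 9 in normoxia (0 unadjusted, 0 by DESeq2 or voom; 0.0716% of all genes, 0.043% higher and 0.0287% lower in females) and for 0 of 9 in hypoxia (1 unadjusted and 1 by DESeq2, Ckb; 0 by voom; 0.15% of all genes, 0.0358% higher in females and the rest lower).

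The direction of 5 of the 9 genes turned with the way libraries were scaled. With RLE or upper quartile factors the median of all genes tested stayed near 0 (-0.004 and -0.02), as after TMM. With TPM less the median of all genes, the averaged Ak4 value went from -0.35 to -0.26 and Ckmt2 no longer passed (-0.26, adjusted p = 0.0514, limma). With library totals alone the median of all genes tested went to 0.20 in the averaged contrast, and with deposited TPM to 0.19. On the TPM scale 0 of 9 genes passed (limma on log2 of TPM + 1), against 33.5% of all genes. There 5 genes that lay below 0 after TMM had values above it: Ckm 0.003, Ckmt2 0.03, Slc6a8 0.02, Ak4 0.04 and Mb 0.16. Ckb (0.33) and Cygb (0.41), above 0 after TMM as well, lay farther above it. Ak3 remained below 0 at -0.17 and Ak1 at -0.06. In mean TPM, Ckm was 889 ± 43.0 in normoxic and 875 ± 98.5 in hypoxic males, and 912 ± 40.5 in normoxic and 933 ± 28.2 in hypoxic females (SD, n = 3 each). Mb was 7094 ± 463 and 8117 ± 614 TPM in males and 7070 ± 313 and 7755 ± 765 TPM in females. The mitochondrially encoded share of counts was lower in hypoxia, as given above. With those genes and haemoglobin taken out before TPM was rescaled, the median of all genes was 0.14, Ckm was at -0.11 and Mb at 0.05. Of the 9 genes 1 passed there (Ak3), against 25% of all genes.

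Subtracting the median of all genes tested takes out a shift that scaling gives to every gene alike. Agreement between scalings of the same unit is then largely given by construction, and only counts and TPM are set side by side. The 1 added to TPM before the log weighs more on low genes, so a shift there is not alike for every gene. All 9 genes lay higher relative to the median on TPM than after TMM. How much of the differences below is this offset was not tested. Relative to that median, the averaged values after TMM and on TPM were -0.45 and -0.36 for Ak3, -0.30 and -0.19 for Ckm, -0.27 and -0.16 for Ckmt2, and -0.14 and -0.03 for Mb. Ak4 differed most between these settings, for a reason not tested. At -0.34 it was the third lowest of the 9 genes after TMM, and at -0.16 it lay above Ckm, Slc6a8 and Ckmt2 on TPM. Slc6a8 was at -0.29 and -0.17, and Ckb and Cygb lay above the median in both settings.

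**Figure D4:**
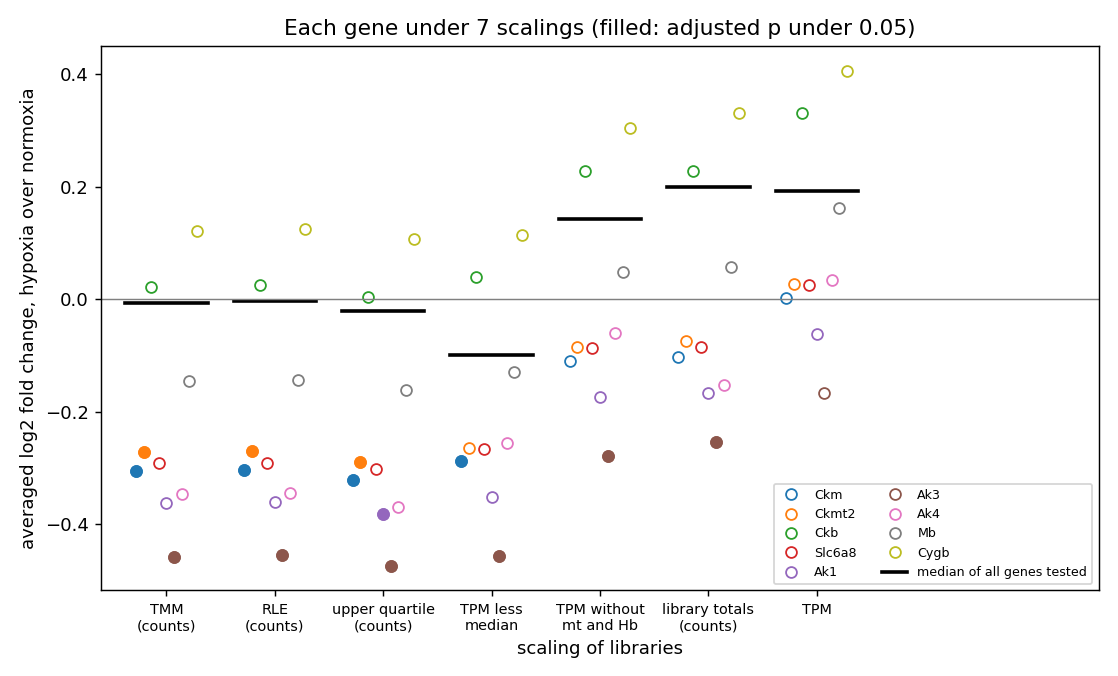
Averaged log2 fold change of hypoxia over normoxia for the 9 genes under 7 ways of scaling libraries, with the median of all genes tested as a black bar; filled points had an adjusted p under 0.05. Going from TMM to deposited TPM the bar goes from -0.01 to 0.19 and the points go up with it, so that Ckm crosses 0 while Ak3 does not.

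The genes most like each one in pattern were found by Pearson's r of log2 CPM over the 12 libraries, among tested genes, as a description only, since points share libraries and oxygen. For Ckm these were Rmnd1 (r = 0.98), Atp5k (0.97), an ATP synthase subunit, and Ndufb10 (0.97), a complex I subunit. For Ckmt2 they were Cbr1 (r = 0.98), Ndufs4 (0.97), of complex I, and Uqcrc1 (0.96), of complex III. Ak1 was nearest to Lrrc14b (0.98), Asb10 (0.98) and Mrpl18 (0.97), and Ak3 to Scn4b (0.97), Tmem8b (0.96) and Slc25a13 (0.96). Ak4 was nearest to Ifngr2 (0.97), Krt222 (0.96) and Lmod3 (0.96), and Slc6a8 to Mapkapk2, Psmc3 and Cpeb4 (each 0.96). Ckb was nearest to Kcp (0.94), Mgat5 (0.92) and Itm2a (0.92). Mb had looser neighbours, Ss18l2 (0.92), Chrac1 (0.91) and Trappc1 (0.90), as did Cygb with Dna2 (0.92), Cers5 (0.91) and G2e3 (0.89). Among the 9 genes themselves, r was 0.91 for Ckm with Ckmt2, 0.87 for Ckmt2 with Ak1 and 0.03 for Ckmt2 with Ckb, and the lowest was -0.67, for Ckmt2 with Cygb.

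The wider pathway was taken as 64 genes in 7 lists, of which 56 were tested. In the averaged contrast 5 were higher, 9 lower and 42 did not pass. Of all genes tested 27.9% passed, 15% higher and 12.9% lower, which are the shares to set beside this count and those of each list below. The median log2 fold change was -0.15 beside -0.01 for all genes. The creatine synthesis genes Gatm (-0.17, adjusted p = 0.609) and Gamt (-0.03, adjusted p = 0.906; edgeR) did not pass, and Ckmt1 had too few reads to be tested. Among 10 tested nucleotide kinases 1 was lower, the guanylate kinase Guk1 (-0.27 ± 0.06 SE, adjusted p = 0.0100, edgeR). Guk1 turned to 0.03 on TPM and was at -0.25 without hypoxic males 2 and 3.

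The genes that handle AMP moved in both directions, 3 higher and 4 lower of 15 tested. Ampd2, an AMP deaminase, had 8.38 ± 0.59 CPM in normoxic and 18.3 ± 1.66 CPM in hypoxic males, and 8.88 ± 0.38 against 17.4 ± 3.42 CPM in females (SD, n = 3), a log2 fold change of 1.05 ± 0.10 (SE; adjusted p = 0.000215, edgeR) that passed in all 27 alternatives run. Prkab1, a regulatory subunit of AMP-activated protein kinase, fell: normoxic males had 35.3 ± 1.86 CPM and hypoxic males 24.3 ± 0.93 CPM, and the female groups 34.7 ± 2.56 and 22.5 ± 1.73 CPM (log2 fold change -0.58 ± 0.06, adjusted p = 0.000326, edgeR). Its paralog Prkab2 (-0.38 ± 0.07, adjusted p = 0.00298) and adenosine kinase Adk (-0.65 ± 0.12, adjusted p = 0.00323; edgeR) also fell. The other 3 that passed were Nt5e (0.37) and Prkag2 (0.49), higher, and Adsl (-0.41), lower. Nt5e, Prkag2 and Adsl were not run in the alternatives or with libraries left out. The mean CPM of Nt5e was 14.2 in normoxic and 25.8 in hypoxic males. In females it was 22.5 (21.2 to 23.7) in normoxia and 20.8 (20.2 to 21.3) in hypoxia, and these groups overlapped. The difference between the sexes in the effect of hypoxia passed for 0 of the 15 genes in edgeR. On deposited TPM neither Prkab1 (-0.16, adjusted p = 0.21), Prkab2 (-0.04) nor Adk (-0.34) passed in limma. Adk was at -0.55 without hypoxic males 2 and 3.

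Of 6 genes for exchange of ATP, ADP and phosphate across mitochondrial membranes, 2 outer membrane channels were lower, Vdac1 (-0.31 ± 0.09, adjusted p = 0.0278) and Vdac3 (-0.25 ± 0.08, adjusted p = 0.0371; edgeR), and on TPM Vdac1 was at -0.003 and Vdac3 at 0.06. Without hypoxic males 2 and 3 Vdac1 was at -0.21 and Vdac3 at -0.24. With normoxic female 3 left out as well they were at -0.20 and -0.28. Calls ended in edgeR when certain single libraries were left out (adjusted p up to 0.074 for Vdac1 and 0.0924 for Vdac3). For Vdac1 these were normoxic males 1 and 3, hypoxic males 2 and 3, normoxic female 2 and hypoxic females 2 and 3. For Vdac3 they were any library but hypoxic male 2, normoxic female 3 and hypoxic female 1. Of 3 tested globin partners 1 was higher: Cyb5r3, the NADH-cytochrome b5 reductase that can return oxidised globins to the ferrous state, had 84.7 ± 1.48 CPM in normoxic and 168 ± 13.2 CPM in hypoxic males, and 83.6 ± 8.14 against 130.2 ± 16.2 CPM in females (SD, n = 3). Its log2 fold change was 0.81 ± 0.08 (SE; adjusted p = 0.00017, edgeR), and it passed in all 27 alternatives run. The 8 tested genes of the M band, where part of Ckm is anchored, did not pass in edgeR, with log2 fold changes between -0.49 (Fhl2) and 0.07 (Myom2).

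Of 12 tested factors known to act on Ckm or Mb, 1 was higher and 2 lower. Nfatc1, which links calcium to slow-muscle genes, rose by 0.60 ± 0.14 (SE; adjusted p = 0.00927, edgeR). Esrrg (-0.54 ± 0.10, adjusted p = 0.00376) and its coactivator Ppargc1a (-0.73 ± 0.23, adjusted p = 0.033; edgeR), which drive mitochondrial genes, fell. Without hypoxic males 2 and 3 Nfatc1 was at 0.50, Esrrg at -0.49 and Ppargc1a at -0.57. With normoxic female 3 left out as well they were at 0.45, -0.54 and -0.45. Whether the calls depend on those males cannot be read from these fits, since 1 hypoxic male was left. The Ppargc1a call ended when any of normoxic male 1, hypoxic males 2 or 3, normoxic female 3 or hypoxic females 2 or 3 was left out alone (edgeR adjusted p 0.0631 to 0.0843). On TPM Esrrg was at -0.23 and did not pass, whereas Nfatc1 passed (0.47, adjusted p = 0.00385, limma); on TPM less the median of all genes Nfatc1 was at 0.18 and did not pass (adjusted p = 0.109, limma). The myogenic factors Mef2a, Mef2c, Mef2d, Srf, Tead1 and Myocd and the oxygen-sensing factors Hif1a and Epas1 did not pass. Their log2 fold changes lay between -0.22 (Hif1a) and 0.11 (Epas1). Esrra, the last of the 12 factors, did not pass either. Its mean CPM was lower in hypoxia in both sexes, but the groups overlapped. Males had 17.4 to 18.4 CPM in normoxia and 11.1 to 18.3 CPM in hypoxia. Females had 13.5 to 16.03 CPM and 5.36 to 23.2 CPM.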

How the data were processed

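RNA of 12 heart ventricle libraries was sequenced with a strand-keeping mRNA kit, per the labels' protocols. The submitters' processing notes name FastQC, Salmon and the build GRCm39; versions, annotation release and strand setting are not given in the sources used here. The authors' deposited table holds estimated counts, TPM and effective transcript lengths, per the file headers. Deposited TPM summed to 889905 to 926060 per library.

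The deposited estimated counts were rounded to whole numbers. Symbols were found for 99.3% of 39210 Ensembl identifiers. After edgeR's filterByExpr 13960 genes remained. TMM factors and a group-means model over all 12 libraries (8 residual degrees of freedom) in edgeR 4.0.16 and R 4.3.3 gave two-sided quasi-likelihood tests of hypoxia against normoxia in each sex and on average, their difference, and the sexes against each other under each oxygen condition; p-values were adjusted by Benjamini-Hochberg over all genes, with a threshold of 0.05. CPM is scaled by TMM here. Ratios of TPM were compared by exact permutation. The named genes are the 9 members, up to 4 genes per wider list by smallest p among those that passed on average, and for each member the 3 tested genes with the highest r, without predicted genes; Nt5e, Prkag2, Adsl, Gatm, Gamt, Fhl2, Myom2 and the factors that did not pass were named after their values were seen. The members and lists were chosen with earlier results of these data known. Alternatives were DESeq2 1.42.0, limma 3.58.1 (voom, and log2 of TPM + 1), other scaling factors, other filters, effective length offsets, mitochondrial and haemoglobin genes removed, a replicate block, fits of the compared libraries alone, and libraries left out. The scripts' tests were checked on simulated data. The counts of all library pairs within a group differed by more than sampling noise (chi-square per degree of freedom 7.60 to 56.6), so none of these was counted as a duplicate. Pairs across groups were not compared. The reference annotation is of another build and served for names, overlaps and promoter letters only.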

Additional observations from a re-analysis of the deposited data

How the results depend on the processing

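Of the 27 alternatives to the averaged contrast, 23 kept its count of passing genes within 1.5 times of 3, and 0 genes were higher in any of them. The count was 0 on deposited TPM (33.5% of all genes passed). It was 1 with TPM rescaled without mitochondrially encoded and haemoglobin genes (25%) and with library totals alone (34.4%). The other alternative outside that range left out hypoxic males 2 and 3. Its count is not given, since 1 hypoxic male was left. Leaving out single libraries gave 2 to 4 (18.8 to 32.3%). These TPM rescalings, library totals alone and the TPM centred on the median were chosen after seeing the data. In males the count was 2, with 15.6% of all genes passing. It became 4 with DESeq2 (20.8% of all genes), 4 with the replicate block (16.2%) and 5 with only the libraries compared (21.1%). Single libraries left out gave 1 to 4 (6.16 to 21.2%). The count was 0 on TPM (26.1%), on rescaled TPM (14.8%) and on library totals (25.7%). No count is given without hypoxic males 2 and 3, where 1 hypoxic male was left. In females the count was 1, with 5.99% of all genes passing. It became 0 with TPM (4.01% of all genes), rescaled TPM (2.91%), library totals (8.82%) and only the libraries compared (0.299%). Single libraries left out gave 0 to 1 (0.385 to 14.5%). For females against males in hypoxia DESeq2 gave 1 (1.32% of all genes, against 0.15% in the main fit). The cause of these shifts was not tested, apart from the scaling that the settings themselves change.

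The replicate number was no sign of pairing: deviations of same-numbered libraries correlated at -0.05 to 0.03, so the replicate block was run as an alternative only. With it Ak1 (-0.37, adjusted p = 0.0135, edgeR) passed on average.

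Directions turned as follows (log2 fold change). Averaged, on TPM: Guk1 0.0298, Vdac3 0.0586, Ckm 0.00304, Ckmt2 0.0278, Slc6a8 0.0247, Ak4 0.035 and Mb 0.162; Mb also 0.0493 on rescaled TPM and 0.0579 on library totals. Cygb was -0.0413 without hypoxic males 2 and 3 and -0.0654 with normoxic female 3 also left out, where Ckb was -0.035; single libraries left out took Ckb from -0.0865 to 0.11. In males, on TPM: Ckb 0.057, Slc6a8 0.182 and Mb 0.194; on rescaled TPM, Slc6a8 0.027 and Mb 0.0351; on library totals, Slc6a8 0.105 and Mb 0.0335; Cygb -0.136 without hypoxic males 2 and 3, and -0.137 with normoxic female 3 also left out. In females, on TPM: Ckm 0.0333, Ckmt2 0.073, Ak1 0.0288, Ak4 0.230 and Mb 0.129; on rescaled TPM, Ckmt2 0.00716, Ak4 0.196 and Mb 0.0635; on library totals, Ckmt2 0.0196, Ak4 0.102 and Mb 0.0823. Ak4 in females was 0.0658 with limma voom, 0.00936 with the replicate block, 0.0165 on TPM less its median, and -0.351 to 0.18 with single libraries left out, and Cygb -0.0222 to 0.18. The log2 ratio Slc6a8 to Ckm was -0.015 without hypoxic males 2 and 3 and -0.0803 to 0.177 with single libraries left out, and Ckmt2 to Ckm -0.00677 to 0.0674.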
